A study of Mus musculus with 4 samples.

Results

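The 10 genes described here encode the CD28 family of T cell receptors and the coinhibitory receptors that act beside them. They were taken by symbol (Cd28, Ctla4, Icos, Pdcd1, Btla, Lag3, Tigit, Havcr2, Cd96 and Cd226), and each symbol matched 1 of the 50600 gene identifiers in the files. RNA-seq had been done on 4 libraries of mouse regulatory T cells of strain C57BL/6NJ, labelled as biological replicates 1 to 4. All belonged to 1 group, so there was no untreated or other control group. The labels linked a differentiation protocol for CD4 T cells, and the header lines name an activated state and 72 h. They gave no sex and no age, and the same donor identifier for all 4 libraries. Nothing in them said that the cells came from separate animals, so p-values measure only the spread between these libraries. Levels are given as TPM, a length-scaled level with the same sum in every library, computed from the deposited counts and exon lengths.

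In mm10 coordinates, 4 of the genes lie on chromosome 1, Cd28 at chr1:60716800-60773359, Ctla4 at chr1:60887000-60915832 and Icos at chr1:60977927-61000320 on the plus strand and Pdcd1 at chr1:94038305-94052553 on the minus strand. On chromosome 16 lie Tigit (chr16:43648861-43664184, minus strand), Btla (chr16:45224315-45252895, plus strand) and Cd96 (chr16:46035657-46120251, minus strand). Lag3 lies at chr6:124904361-124911705 on the minus strand, Havcr2 at chr11:46454935-46481255 on the plus strand and Cd226 at chr18:89197431-89270201 on the plus strand. Counts cover all annotated exons of a gene, untranslated ones included.

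A T cell needs a costimulatory signal beside its antigen receptor, and CD28 gives it when it binds CD80 or CD86 on another cell. CTLA4 binds the same ligands more tightly and withholds them from CD28, and regulatory T cells are known for carrying it constantly. PD-1, BTLA, LAG3, TIGIT and TIM-3 are further inhibitory receptors, most of which T cells gain after activation. CD226, TIGIT and CD96 compete for the nectin-like ligand CD155, with CD226 as the activating member of the trio.

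The regulatory T cell label was checked against its markers. All 10 genes of the list for CD4 regulatory T cells reached 1 TPM in every library, against 48.9% of protein-coding genes. Of these, Cd4, Cd3d, Cd3e, Cd3g and Trac are general to CD4 T cells and do not mark regulatory ones. Foxp3 stood at 448 ± 27.8 TPM, Il2ra at 2168 ± 242 TPM and Ikzf2, the lowest of the list, at 16.4 ± 3.61 TPM (SD, n = 4). Of the CD8 T, natural killer, B, dendritic cell and macrophage marker lists, 1 gene each reached 1 TPM in every library. Of the 4 mast cell markers 0 did. The highest genes of these other cell types were the granule gene Nkg7 at 145 ± 14.4 TPM and Cd8b1 at 11.5 ± 2.16 TPM. The natural killer receptor genes Ncr1 and Klra8 had 0 counts in all 4 libraries. The shallowest library held 51460018 counts and the deepest 121477975, which is 2.36 times as many. Replicates 1 and 2 stood apart from replicates 3 and 4 in sex-linked transcripts, with Xist at 173, 199, 0.592 and 0.758 TPM in replicates 1 to 4. Eif2s3y, on the Y chromosome, was at 0.0874, 0.133, 46.7 and 62.7 TPM. By these transcripts replicates 1 and 2 were female and replicates 3 and 4 male. The 4 libraries thus did not all come from 1 animal, although the labels gave 1 donor identifier. Replicate 2 also stood apart in base composition. Its median log2 deviation from the gene mean was 0.19 over the 2394 genes of lowest GC content and -0.08 over the 2394 of highest.

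Ctla4 and Pdcd1 dominated the group of 10 receptor genes. Ctla4 averaged 546 ± 94.8 TPM and Pdcd1 420 ± 41.2 TPM, and together they held 65.9% ± 1.09 of the summed TPM of the 10 genes (SD, n = 4). Icos, Cd96, Cd226, Cd28, Btla, Lag3 and Tigit followed between 34.8 and 103 TPM, and Havcr2 stood alone at 0.305 ± 0.252 TPM, or 0.183 TPM without replicate 2. All but Havcr2 reached 1 TPM in every library (9 of 10, against 48.9% of 21764 protein-coding genes), and 3 of 10 averaged 100 TPM or more (9.62% of protein-coding genes). The median level of the 10 was 77.9 TPM, against 1.04 TPM over all protein-coding genes. In bulk RNA, fewer cells carrying a transcript and less of it per cell cannot be told apart.

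**Figure D1:**
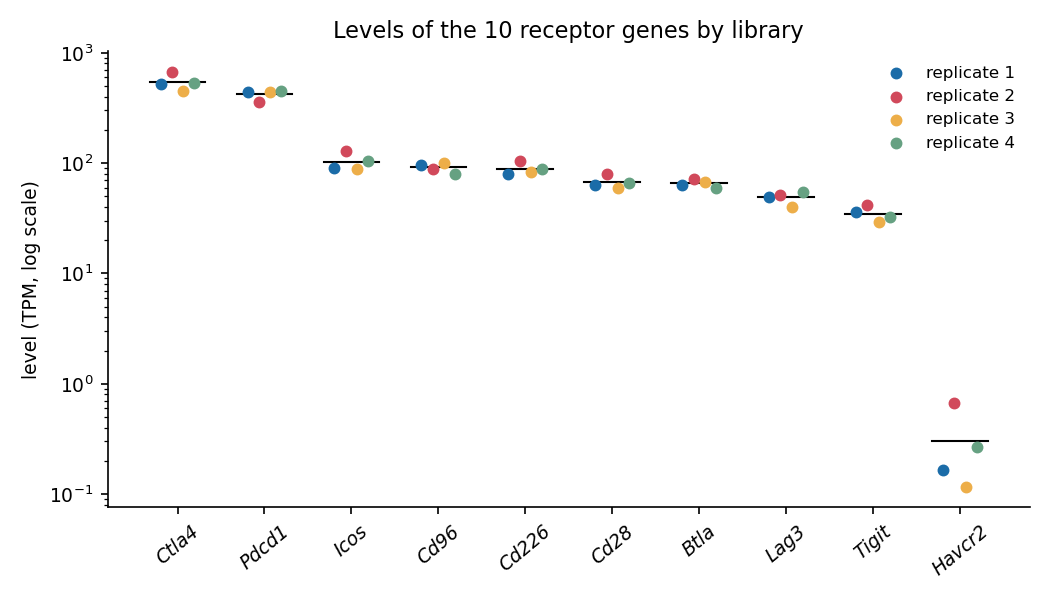
Level of each of the 10 receptor genes in TPM (log scale), with 1 point per library and a bar at the mean of the 4 libraries. Ctla4 and Pdcd1 lie between 359 and 676 TPM, 7 genes lie between 29.2 and 128 TPM, and Havcr2 lies under 1 TPM.

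The region before the start of 4 of these genes is shown to set the 2 highest members beside the lowest one above 1 TPM, Tigit, and beside Havcr2. Each is the 250 bases before the start of the RefSeq gene model (GRCm38.p6), written 5′ to 3′ on the gene's strand, at chr1:60908775-60909024 on the plus strand for Ctla4, chr1:94052554-94052803 on the minus strand for Pdcd1, chr16:43664185-43664434 on the minus strand for Tigit and chr11:46454681-46454930 on the plus strand for Havcr2. The RefSeq start of Ctla4 lies inside the longer gene span of the files. Capitals mark every match, on both strands, of the motifs GGAAA (the core of the NFAT site), TGANTCA (the AP-1 site), TGTGGT (the RUNX site), TATAAA (the TATA box) and TGACG (the core of the CRE).
Ctla4: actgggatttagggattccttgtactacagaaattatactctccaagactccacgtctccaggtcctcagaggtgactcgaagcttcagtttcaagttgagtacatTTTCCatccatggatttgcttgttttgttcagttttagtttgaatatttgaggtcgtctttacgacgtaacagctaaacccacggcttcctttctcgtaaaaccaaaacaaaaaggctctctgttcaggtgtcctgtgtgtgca
Pdcd1: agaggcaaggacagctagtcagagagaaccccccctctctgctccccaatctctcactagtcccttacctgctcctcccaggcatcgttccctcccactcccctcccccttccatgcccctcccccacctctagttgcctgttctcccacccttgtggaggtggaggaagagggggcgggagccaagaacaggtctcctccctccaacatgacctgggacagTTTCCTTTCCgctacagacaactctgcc
Tigit: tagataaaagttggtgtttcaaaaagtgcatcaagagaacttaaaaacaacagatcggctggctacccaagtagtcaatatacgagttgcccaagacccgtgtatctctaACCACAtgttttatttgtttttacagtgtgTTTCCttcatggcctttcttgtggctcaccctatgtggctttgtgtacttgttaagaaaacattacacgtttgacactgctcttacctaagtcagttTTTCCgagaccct
Havcr2: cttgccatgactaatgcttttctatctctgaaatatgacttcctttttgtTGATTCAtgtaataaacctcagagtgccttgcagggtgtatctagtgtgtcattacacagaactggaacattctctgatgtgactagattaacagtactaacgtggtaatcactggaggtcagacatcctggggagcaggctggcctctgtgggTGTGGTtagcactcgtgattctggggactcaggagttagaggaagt
Ctla4 held 1 match of the NFAT core, Pdcd1 2 and Tigit 2, with 1 RUNX match in Tigit, while Havcr2 held 1 AP-1 and 1 RUNX match and no NFAT core. Of 32536 promoters of the same length, 55.7% held GGAAA, 14% TGTGGT, 12.3% TATAAA, 6.73% TGANTCA and 17.9% TGACG. Neither TATAAA nor TGACG was found in these 4. In the windows of Cd96 and Btla, the other members with an entry, the search found 4 and 0 matches of the NFAT core and 1 RUNX match each, with 1 TATAAA in Cd96. The GC content of the window was 60.4% for Pdcd1, 42.4% for Ctla4, 40% for Tigit and 44.8% for Havcr2, against a median of 52.4% over all promoters.

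Among the costimulatory receptors, Icos was highest. Icos, which sustains helper and regulatory T cells through a ligand of its own, had 90.5, 128, 88.0 and 105 TPM in replicates 1 to 4, a mean of 103 ± 18.3 TPM (SD, n = 4). Cd28, the founding costimulatory receptor gene, had 63.5, 80.2, 59.4 and 65.6 TPM, a mean of 67.2 ± 9.05 TPM. Replicate 2 was the highest and replicate 3 the lowest library for both genes. Cd226, which encodes the activating receptor for CD155, had 79.0, 104, 83.2 and 87.9 TPM, a mean of 88.5 ± 10.9 TPM. Replicate 2 was again highest, and replicates 1, 3 and 4 lay close together. The level of Cd226 rests on an exon length of 2357 bases in the files. With the longest coding transcript of GENCODE M21, 4494 bases, it was 33.9 TPM, below Cd28. The counts cover only the 2357 bases, so the longer length takes in bases where no fragment was counted and makes the level too low. Icos exceeded Cd28 by 0.61 ± 0.08 on the log2 scale, in 4 of 4 libraries. Cd28 has the longer annotated exons, 6122 bases against 3430 for Icos, and by CPM, counts scaled to the library total without length, the difference turned to -0.23.

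Among the inhibitory members of the CD28 family, Ctla4 and Pdcd1 far exceeded Btla. Ctla4 had 521, 676, 450 and 536 TPM in replicates 1 to 4. Replicate 2 was its highest library and replicate 3 its lowest. Pdcd1, which encodes PD-1, had 439, 359, 437 and 446 TPM, with replicate 2 the lowest and the other 3 close together. Ctla4 therefore lay above Pdcd1 in 4 of 4 libraries, but by a log2 difference of 0.37 ± 0.38 that was no larger than its spread. In replicate 3 it was 0.04, in replicate 2 0.91, and without replicate 2 the mean was 0.18. Btla, whose product binds the TNF receptor family member HVEM, had 63.4, 72.4, 67.0 and 59.8 TPM and the smallest coefficient of variation of the 10 genes, 8.21%. Pdcd1 exceeded Btla by 2.67 ± 0.26 on the log2 scale, a ratio of 6.40 between mean levels, and by 1.92 by CPM.

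Ctla4 and Pdcd1 ranked 230 and 332 among 21764 protein-coding genes by mean TPM. The 5 CD28 family genes, Cd28, Ctla4, Icos, Pdcd1 and Btla, held 81.9%, 82.1%, 81.3% and 82.6% of the summed level in replicates 1 to 4. Within it, the share of Ctla4 ranged from 33.2% in replicate 3 to 42.2% in replicate 2, and that of Pdcd1 from 22.4% in replicate 2 to 32.3% in replicate 3. Gene-level counts do not separate isoforms, and the 3 annotated Ctla4 transcripts are summed here.

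Among the receptors for CD155, the inhibitory Tigit was the lowest. Tigit had 35.8, 41.6, 29.2 and 32.6 TPM in replicates 1 to 4, a mean of 34.8 ± 5.29 TPM (SD, n = 4). Cd96, whose product also binds CD155 and is reported to restrain natural killer cells in mice, had 95.5, 89.0, 100 and 80.1 TPM, a mean of 91.2 ± 8.75 TPM. Every library of Cd96 and of Cd226 lay above every library of Tigit. Tigit lay below Cd226 by a log2 difference of -1.35 ± 0.16 and below Cd96 by -1.40 ± 0.29, each in 4 of 4 libraries. By CPM these differences were -2.63 and -2.57, and with the longest coding transcript as length -0.35 and -1.33. With the exon lengths of the files, Cd96 and Cd226 could not be ordered: Cd96 was higher in replicates 1 and 3 and Cd226 in replicates 2 and 4, with a log2 difference of 0.05 ± 0.26 (exact two-sided sign-flip permutation test, p = 0.75). With the longest coding transcript, Cd96 was higher by 0.97. For Cd226 that transcript is longer than the exons counted, which makes its level too low in this setting, also against Tigit. The merged exons of Tigit span only 963 bases, so its 34.8 TPM rested on 473 to 1232 counts per library. Natural killer cells also carry these receptors. Their marker list summed to 132, 146, 140 and 166 TPM in replicates 1 to 4, nearly all of it Nkg7, with 1 of 7 genes at 1 TPM in every library and Ncr1 and Klra8 at 0 counts. Replicate 4 was highest in that sum because it was highest for Nkg7, so the sum does not measure natural killer cells. The part of such cells in the levels of these receptors was not tested.

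Lag3 encodes an inhibitory receptor that binds MHC class II, as CD4 does. It had 49.7, 51.3, 40.2 and 55.1 TPM in replicates 1 to 4, a mean of 49.1 ± 6.36 TPM (SD, n = 4). Replicate 3 was its lowest library. The Cd4 gene, its neighbour on chromosome 6, stood at 656 ± 16.2 TPM, and Lag3 lay below it by a log2 difference of -3.75 ± 0.21 in 4 of 4 libraries, or -4.68 by CPM. Lag3 lay below Pdcd1 by -3.10 ± 0.27.

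Havcr2, which encodes TIM-3, a receptor of exhausted T cells and of myeloid cells, was close to the limit of detection. It had 16, 33, 7 and 11 counts in replicates 1 to 4, or 0.165, 0.671, 0.117 and 0.268 TPM. The exact Poisson 95% interval, which covers counting error only, was 0.462 to 0.942 TPM in replicate 2 and 0.0469 to 0.241 TPM in replicate 3. These intervals do not overlap, and the interval of replicate 2 also lies above that of replicate 1 (0.0940 to 0.267 TPM). The interval of replicate 4 (0.134 to 0.480 TPM) overlaps those of replicates 1, 2 and 3. Macrophage markers, of which 1 of 6 reached 1 TPM in every library, summed to 2.39, 4.12, 2.26 and 4.59 TPM in replicates 1 to 4. Adgre1, which encodes the macrophage antigen F4/80, had 1.85, 3.34, 1.76 and 3.25 TPM, and Cd14 averaged 0.739 ± 0.372 TPM (SD, n = 4). Csf1r had 12, 3, 1 and 3 counts and its highest level in replicate 1, and Lyz2 and Fcgr1 had 0 counts in all 4. Dendritic cell markers, of which 1 of 6 reached 1 TPM in every library, summed to 4.46, 5.22, 4.20 and 4.68 TPM, with Clec9a and Siglech at 0 counts. Their part in the Havcr2 counts was not tested.

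Placed in order of mean TPM, the 10 genes ran Ctla4, Pdcd1, Icos, Cd96, Cd226, Cd28, Btla, Lag3, Tigit and Havcr2. Neighbours were taken as separate where the order held in 4 of 4 libraries and the mean log2 difference exceeded 2 SD. Of the 9 neighbouring pairs, 4 met this: Pdcd1 over Icos (2.04 ± 0.38), Cd226 over Cd28 (0.40 ± 0.07), Lag3 over Tigit (0.50 ± 0.19) and Tigit over Havcr2 (6.60 ± 0.63). The other 5 pairs, Ctla4 and Pdcd1, Icos and Cd96, Cd96 and Cd226, Cd28 and Btla, and Btla and Lag3, did not meet this rule. Of these, Ctla4 over Pdcd1 (0.37 ± 0.38) and Btla over Lag3 (0.43 ± 0.26) held in 4 of 4 libraries but did not exceed 2 SD. The place of Cd226 above Cd28 depends on length: by CPM Cd226 stood at 61.3 and Cd28 at 121. With the longest coding transcript Cd226 also lay below Cd28, but that transcript is longer than the exons counted for Cd226, which makes its level too low. Because the order was read from these same values, it was not tested.

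The levels of 15 pairs of genes were compared within each library by an exact two-sided sign-flip permutation test on log2(TPM + 0.1). In 14 pairs the direction was the same in 4 of 4 libraries, and each had an exact p of 0.13, the smallest that 4 libraries allow (2 of 16 sign flips), and of 0.13 after Benjamini-Hochberg adjustment over the 15 pairs. No pair could therefore pass 0.05. Ctla4 exceeded Cd28 by 3.01 ± 0.07, Ctla4 exceeded Icos by 2.41 ± 0.08 and Pdcd1 exceeded Cd28 by 2.65 ± 0.33. By CPM, Ctla4 exceeded Cd28 by 1.62 and Pdcd1 exceeded Cd28 by 0.98.

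**Figure D2:**
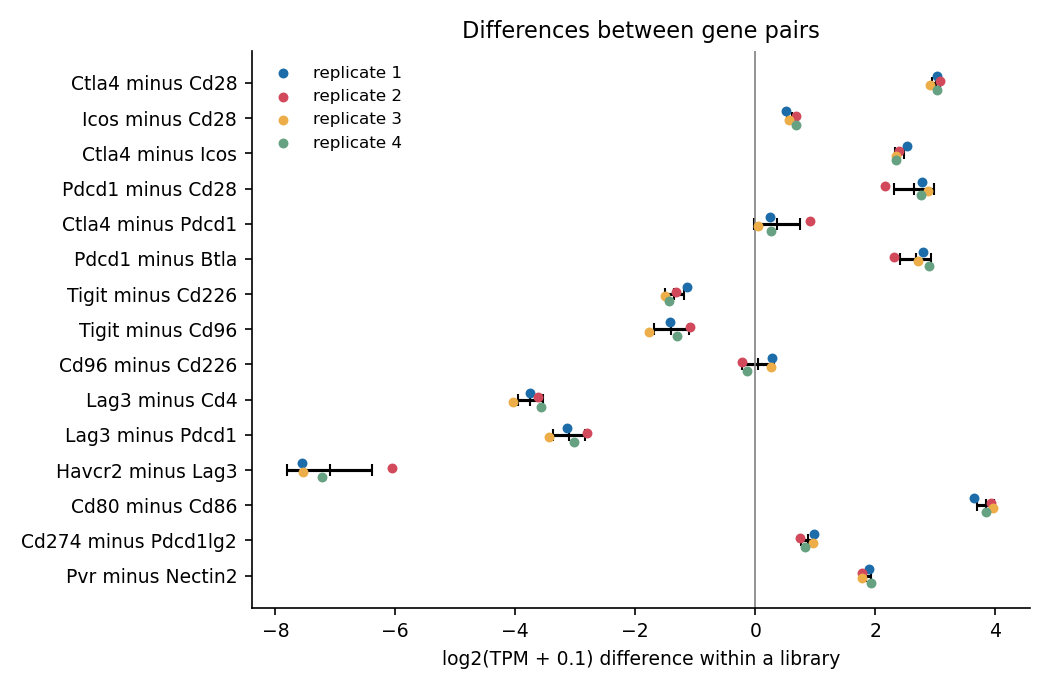
Log2(TPM + 0.1) difference of each of 15 gene pairs within a library, with 1 point per library, and the mean and SD of the 4 libraries as a tick with bars. All points of a pair lie on 1 side of 0 except those of Cd96 and Cd226, which lie on both.

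Cd28, Ctla4 and Icos lie side by side on chromosome 1, with no other annotated protein-coding gene between them. In mm10 they span positions 60716800 to 61000320, with 113640 bases between the annotated ends of Cd28 and Ctla4 and 62094 bases between those of Ctla4 and Icos. Differences in level among them varied little over the 4 libraries. The SD of the log2 difference was 0.07 for Ctla4 and Cd28, 0.08 for Ctla4 and Icos and 0.08 for Icos and Cd28, against a median of 0.21 over the 33 other pairs among the 9 genes above 1 TPM. These 3 pairs took places 1, 4 and 5 of 36 when ordered by this SD. Cd226 with Cd28 (0.07) and Ctla4 with Tigit (0.08), pairs on different chromosomes, took places 2 and 3. The genes Tigit, Btla and Cd96, all on chromosome 16, are spread over 2471391 bases with 34 protein-coding genes annotated in that span, and their pair SDs were 0.14 for Cd96 and Btla, 0.18 for Btla and Tigit and 0.29 for Cd96 and Tigit.

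The deviations of replicate 2 were also measured with base composition taken into account. Cd28, Ctla4 and Icos have transcripts of 41.2%, 42.6% and 43.0% GC, and Pdcd1 one of 54.6%, and replicate 2 was high for genes of low GC content as a whole. With the trend of deviation on GC content and length taken out of each library, an alternative added after seeing the data, the deviation of replicate 2 was 0.07 for Cd28, against 0.26 as measured. It was 0.19 for Ctla4, against 0.32, and 0.20 for Icos, against 0.33. For Pdcd1 it was -0.16, against -0.22, and for Cd226, of 35% GC, it was -0.09, against 0.24. That GC content is of a Cd226 transcript of 4494 bases, whereas the counts cover exons of 2357 bases, so the adjusted value of Cd226 is uncertain. Tigit, of 52.3% GC, was at 0.31, against 0.27. For Btla it was -0.04, against 0.15, for Lag3 0.17, against 0.07, and for Cd96 -0.11, against -0.03. Of the 9 genes, Cd96, Lag3 and Tigit thus deviated more in replicate 2 with the trend taken out, and the others less. The 3 pair SDs of the chromosome 1 genes were then 0.10, 0.08 and 0.11, against a median of 0.21 over the other 33 pairs, and took places 7, 3 and 9 of 36.

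**Figure D3:**
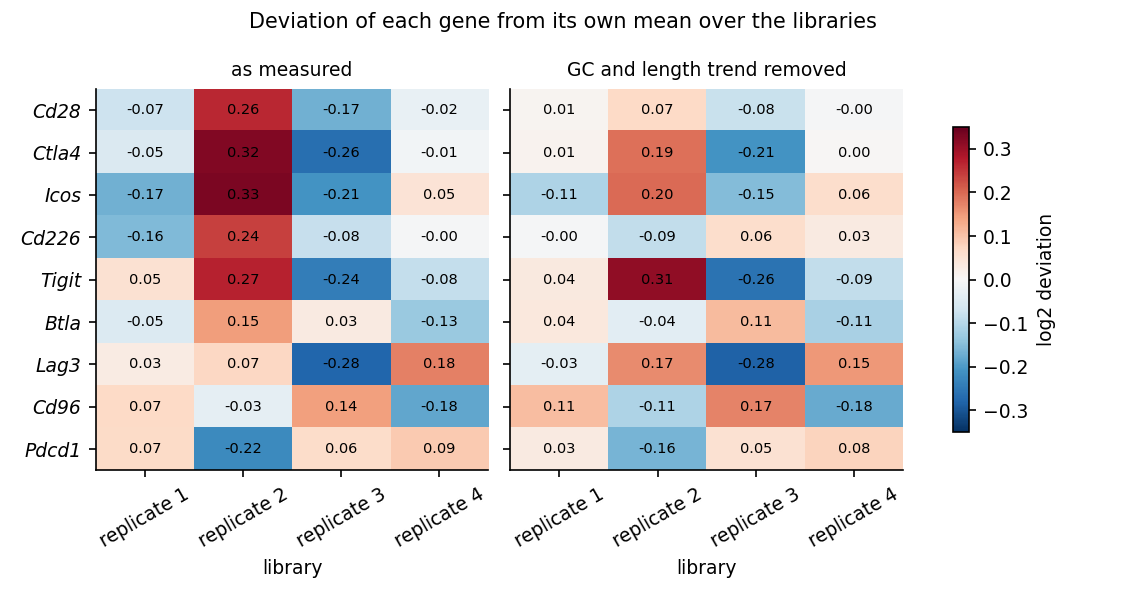
Log2 deviation of 9 receptor genes from their own mean in each library, as measured (left) and with the GC and length trend taken out of each library (right), with red above and blue below the mean. As measured, replicate 2 is highest for 6 of the 9 genes and replicate 3 is lowest for 5, and the deviations of Cd28 and Cd226 in replicate 2 shrink on the right.

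The spread between libraries was then set against that of all genes of like abundance with edgeR's quasi-likelihood dispersion, divided by the trended prior. The filter on low counts passed 9 members and left out Havcr2. None of the 9 was called at an adjusted p under 0.05 (0 of 9, where 0.00734% of 13625 genes were called), and the smallest adjusted p was 0.965. At an unadjusted 0.05 in edgeR's test, 2 of the 9 passed, Ctla4 at 0.0276 and Icos at 0.0286, as did 4.70% of all genes tested. DESeq2 marked 0 of the 9 as dispersion outliers and limma-trend called 0. The dispersion of all 9 was nevertheless above its prior, by 5.92 times for Ctla4, 5.82 times for Icos, 3.75 times for Pdcd1 and 3.16 times for Cd28, down to 1.15 times for Btla, whereas 45.2% of all genes tested lay above it. With 4 libraries and adjustment over 13625 genes, even the 5.92 times of Ctla4 left an adjusted p of 0.965 in edgeR's test. That 0 of 9 were called therefore does not show that the spread of these genes was ordinary. The median coefficient of variation was 13% over the 9 genes and 8.53% over the 11984 genes at 1 TPM in every library. Without replicate 2, which stood apart in base composition, 5 of the 9 lay above the prior, against 39.8% of all genes tested in that setting. It was 7 of the 9 without replicate 3 (40.6% of all genes), 8 of the 9 without replicate 4 (42.4%) and 9 of the 9 without replicate 1 (40.7%). The ratio of Pdcd1 was 0.0358 without replicate 2, its low library, and that of Lag3 0.402 without replicate 3, its low library. Ctla4 and Icos stayed above 1 whichever library was left out, between 3.13 and 6.78 for Ctla4 and between 4.10 and 6.45 for Icos.

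**Figure D4:**
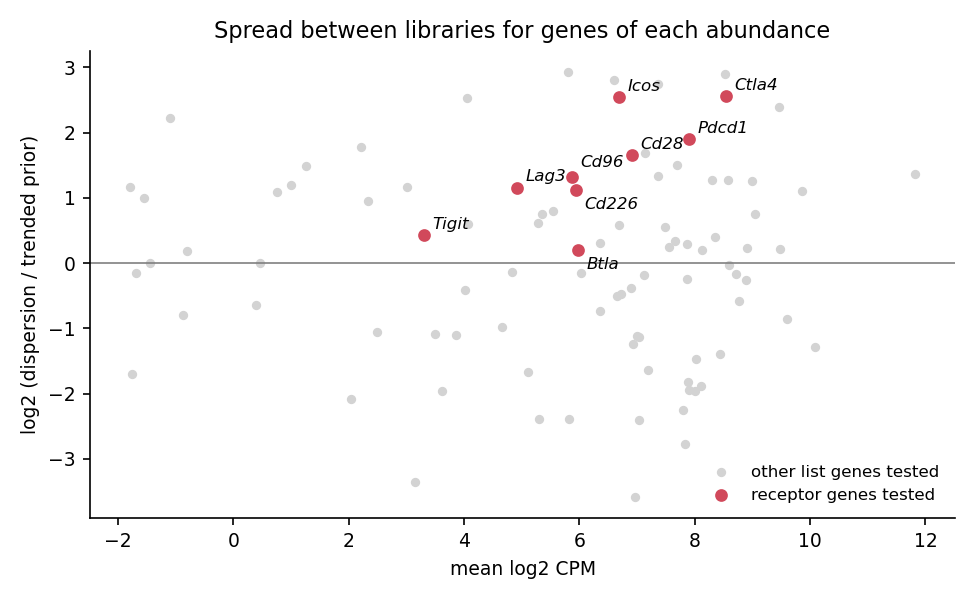
Log2 ratio of edgeR's quasi-likelihood dispersion to its trended prior against mean log2 CPM for the receptor genes tested (red) and the other genes of the lists described here (grey). All 9 receptor genes lie above 0, from 0.20 for Btla to 2.57 for Ctla4, and none was called.

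Transcripts of several ligands of these receptors were found in the same libraries. Of 17 ligands and their relatives, 10 reached 1 TPM in every library (58.8%, against 48.9% of protein-coding genes). Cd80, 1 of the 2 ligands of CD28 and CTLA4, had 152, 177, 173 and 155 TPM in replicates 1 to 4, and Cd86, the other, had 12.1, 11.5, 11.0 and 10.7 TPM. Every library of Cd80 lay above every library of Cd86, by a log2 difference of 3.84 ± 0.14, or 2.74 by CPM and 2.42 with the longest coding transcript. The PD-1 ligand genes Cd274 (131 ± 5.98 TPM; SD, n = 4) and Pdcd1lg2 (71.2 ± 4.57 TPM) were both abundant, with Cd274 higher by 0.88 ± 0.12, or by 2.02 by CPM. Lgals9, whose product galectin-9 is a ligand of TIM-3, stood at 163 ± 12.1 TPM, while Havcr2 itself was under 1 TPM. Hmgb1, a chromatin protein also described as a TIM-3 ligand, stood at 84.6 ± 2.68 TPM. Tnfrsf14, which encodes the BTLA ligand HVEM, stood at 42.4 ± 2.36 TPM.

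The CD155 gene Pvr stood at 31.2 ± 1.42 TPM and Nectin2 at 8.60 ± 0.466 TPM, a log2 difference of 1.85 ± 0.08, or 2.66 by CPM and 2.57 with the longest coding transcript. Icosl, the ligand of ICOS, was at 1.80, 1.11, 0.904 and 0.961 TPM in replicates 1 to 4. Fgl1, a ligand of LAG3 made by the liver, had 0 counts in all 4 libraries, and the floor of 3 counts taken as the limit of a count of 0 corresponds to 0.0247 to 0.0583 CPM. The median level of the 17 genes was 10.2 TPM, against 1.04 TPM over all protein-coding genes, and the median coefficient of variation of the 10 detected ones was 5.49%.

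**Figure D5:**
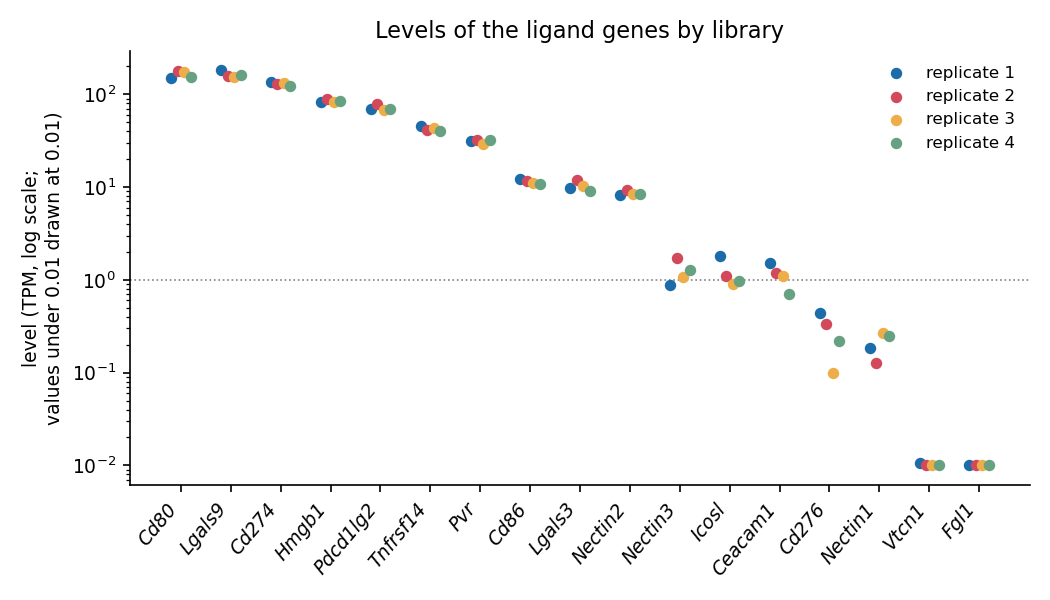
Level of 17 ligand genes and their relatives in TPM (log scale), with 1 point per library and a dotted line at 1 TPM. Cd80, Lgals9 and Cd274 lie between 123 and 181 TPM, and Fgl1 lies at the bottom of the axis.

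The kinases, adaptors and phosphatases that the receptor tails recruit were all present. All 18 reached 1 TPM in every library, against 48.9% of protein-coding genes, and 16 averaged 100 TPM or more (9.62% of protein-coding genes). Their median was 195 TPM, against 1.04 TPM over all protein-coding genes. Lck, the kinase that phosphorylates the antigen receptor and CD28, led at 827 ± 42.1 TPM (SD, n = 4). Ptpn6, which encodes the phosphatase SHP-1, stood at 509 ± 21.2 TPM, and Ptpn11, which encodes SHP-2, the phosphatase recruited by PD-1, at 126 ± 6.41 TPM. Csk (438 ± 23.2 TPM), which restrains Lck, and the phosphatase scaffold Ppp2r1a (385 ± 29.1 TPM) followed, and Prkcq, the protein kinase C that acts after CD28, was lowest at 39.3 ± 1.96 TPM.

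All 11 genes for the transport, shedding and turnover of these receptors also reached 1 TPM in every library, against 48.9% of protein-coding genes. Def6 (278 ± 23.0 TPM) and Lrba (23.0 ± 1.09 TPM; SD, n = 4) encode partners in the recycling of CTLA4. Cmtm6, which keeps the PD-1 ligand on the cell surface, stood at 258 ± 9.61 TPM. The LAG3-shedding proteases were represented by Adam10 (161 ± 14.4 TPM) and Adam17 (50.1 ± 3.56 TPM). The clathrin adaptor genes Ap2m1 (152 ± 6.94 TPM), which takes CTLA4 in from the surface, and Ap1m1 (151 ± 13.1 TPM) lay between them. Fut8, a fucosyltransferase that modifies PD-1, was lowest at 6.98 ± 0.692 TPM.

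Of 17 transcription factors known to act on coinhibitory receptor genes, 15 reached 1 TPM in every library (88.2%, against 48.9% of protein-coding genes). The antigen receptor-induced factors Nr4a1 (965 ± 117 TPM; SD, n = 4) and Nr4a3 (526 ± 45.3 TPM) and the factors Irf4 (786 ± 42.6 TPM), Tcf7 (449 ± 26.2 TPM) and Foxp3 were highest. Prdm1, which encodes Blimp-1 and is known to drive coinhibitory receptor genes in mouse T cells, was lowest at 0.333 ± 0.105 TPM. Maf, which acts with it in mouse T cells, had 33.2, 48.9, 34.2 and 43.6 TPM. Tox, a factor of exhausted T cells, stood at 17.7 ± 0.801 TPM, and Tox2 at 0.473 ± 0.298 TPM.

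Of 13 inhibitory receptors outside the 10, 5 reached 1 TPM in every library (38.5%, against 48.9% of protein-coding genes), and the median was 0.475 TPM, against 1.04 TPM over all protein-coding genes. Cd5, which dampens antigen receptor signals, was highest at 834 ± 61.8 TPM (SD, n = 4), above Ctla4 in each library. Cd101 (47.7 ± 3.91 TPM) and Vsir (44.1 ± 3.50 TPM), which encodes VISTA, lay near Lag3, followed by Lair1 (3.67 ± 0.648 TPM) and Cd160 (1.61 ± 0.304 TPM), whose product shares HVEM with BTLA. Klrg1, Pvrig and Cd300a had 0 counts in all 4 libraries.

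The list gene nearest to each of the 9 members in its deviations over the 4 libraries was sought among 59 detected genes of these lists, by the root mean square difference of log2 values centred on each gene's mean. The closest match was Trat1 to Btla (0.018), followed by Def6 to Pdcd1 (0.038), Adam10 to Cd226 (0.046), Nr4a2 to Cd28 (0.054), Fut8 to Lag3 (0.058) and Maf to Icos (0.062). Nr4a2 was also nearest to Ctla4 (0.095) and Tigit (0.070), and Id2 to Cd96 (0.075). With 4 libraries that share the base composition trend above, these are descriptions only.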

How the data were processed

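RNA-seq libraries of mouse regulatory T cells were represented by 4 deposited tables of raw fragment counts per gene. Per the file headers, the authors counted paired fragments on mm10 with featureCounts 1.4.6-p4 and GENCODE M13, with both ends mapped, exons grouped by gene and reverse-stranded counting (setting 2). The sources used here do not give the aligner's version. A poly(A)+ library protocol is linked, although the assay is labelled total RNA-seq. Replicate numbers are those of the labels. No member shared exon bases with another annotated gene.

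TPM was computed from the counts and the deposited merged exon lengths. Symbols came from GENCODE M21, where 50376 of 50600 identifiers matched. Total counts ranged from 51460018 to 121477975, and intervals cover counting error only. The members, lists and pairs were chosen with earlier results of these data known. For the spread between libraries, edgeR 4.0.16 was run under R 4.3.3 (TMM, filterByExpr, intercept-only quasi-likelihood fit, robust prior, Benjamini-Hochberg adjustment), after a check on simulated data. Alternatives used DESeq2 1.42.0 and limma 3.58.1, other pseudocounts and filters, CPM (counts scaled to the library total) and leaving out each replicate. Removing GC and length trends and using coding transcript lengths were added after seeing the data. GC content is that of the longest coding transcript in GENCODE M21. Only some of the nearest coding neighbours are named, and none of Cd96 or Cd226. Beside these and the members, the text names by rule the 5 highest genes and the lowest of each list. By the same rule it names the genes of pairs, of outlying libraries and nearest to a member. 1 list gene that this rule names is not reported here. Tnfrsf14, Icosl, Ptpn11, Lrba, Adam17, Tox and Tox2 fall outside this and were chosen after their values were seen. Scripts ran in Python 3.11.15 with scipy 1.17.1, and figures were drawn with matplotlib 3.10.9.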

Additional observations from a re-analysis of the deposited data

Results flagged for a closer look

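In 4 of 87 values examined, 1 library lay farther from the other 3 than Dixon's 95% critical value for 4 samples allows, and chance flags about 1 in 20. All 4 concern replicate 2, the library whose median deviation was 0.19 over the genes of lowest GC content. Pdcd1 was at 359 TPM in replicate 2, against 437 to 446 TPM in the other 3 libraries. The log2 difference of Pdcd1 and Cd28 was 2.16 in replicate 2, against 2.76 to 2.88 in the others. Replicate 2 was the lowest library for Pdcd1 and the highest for Cd28, and both enter this difference. The PD-1 ligand gene Pdcd1lg2 was at 78.0 TPM in replicate 2, against 68.2 to 69.3 TPM. Nectin2 was at 9.30 TPM in replicate 2, against 8.32 to 8.42 TPM. With the GC and length trend taken out, the log2 deviation of replicate 2 was -0.16, against -0.22, for Pdcd1 and 0.07, against 0.26, for Cd28. The part of base composition in the values of Pdcd1lg2 and Nectin2 was not tested.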

How the results depend on the processing

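By CPM, without length, Icos minus Cd28 was -0.23 and Cd96 minus Cd226 -0.0639. Leaving out 1 replicate moved Cd96 minus Cd226 between -0.0295 and 0.14, with -0.0286 without replicate 3. No setting let a member pass the dispersion test, with a smallest adjusted p between 0.264 (edgeR without the filter) and 0.971. Leaving out 1 replicate took the ratio of dispersion to prior below 1 for 6 members, over ranges of 0.0358 to 4.10 for Pdcd1, 0.969 to 2.54 for Cd226, 0.860 to 3.54 for Cd28 and 0.836 to 1.63 for Tigit (all lowest without replicate 2), 0.402 to 5.21 for Lag3 (lowest without replicate 3) and 0.446 to 1.85 for Btla (lowest without replicate 4); Tigit was also at 0.855 without replicate 3. Over all genes, edgeR called 1, against 98 without the filter on low counts and 1 to 18 without 1 replicate (2 without replicate 1, 18 without replicate 2), and DESeq2 marked 43. The cause was not tested. By CPM the 5 CD28 family genes held 84.8% of the summed level, Tigit, Cd96 and Cd226 12.3%, and Ctla4 and Pdcd1 57.8%. With the longest coding transcript as length for every gene, an alternative added after seeing the data that rescales TPM as a whole, Pdcd1 was at 307 TPM, Icos at 79.6, Cd96 at 66.7, Cd226 at 33.9, Btla at 48.0, Lag3 at 37.8 and Tigit at 26.6, and the order then ran Ctla4, Pdcd1, Icos, Cd28, Cd96, Btla, Lag3, Cd226, Tigit and Havcr2. For Cd226 this transcript length exceeds the exons counted, so its level there is too low. By CPM the order ran Ctla4, Pdcd1, Cd28, Icos, Btla, Cd226, Cd96, Lag3, Tigit and Havcr2. At 5 TPM, 3 of the 13 other inhibitory receptors remained detected. Removing the GC and length trend leaves mean differences as they are by construction and changes only their spread. No paired comparison of conditions was possible because all libraries belong to 1 group. Depth limits Havcr2, with 7 to 33 counts.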

Other observations

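The nearest protein-coding neighbours of the receptor genes covered a wide range of levels. Lag3 lies between Cd4, 16139 bases away, and Ptms, 1975 bases away, which stood at 656 ± 16.2 and 200.5 ± 19.5 TPM (SD, n = 4), both above Lag3. Pdcd1 lies 9970 bases from the sialidase gene Neu4, which had 0 counts in all 4 libraries. Havcr2 lies 12213 bases from Med7, a subunit gene of the Mediator complex, at 29.9 ± 4.44 TPM. Btla lies between the autophagy gene Atg3 (28.9 ± 0.912 TPM) and Cd200 (72.2 ± 4.08 TPM), and Tigit is 6258 bases from Zbtb20, which stood at 1.48 ± 0.190 TPM. Beyond the chromosome 1 cluster, Raph1, on the far side of Cd28, stood at 7.69 ± 0.435 TPM and Pard3b, on the far side of Icos, at 0.160 ± 0.0491 TPM.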
